A study of Mus musculus with 12 samples.

Results

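The 41 genes described here belong to the interferon, MHC class I and inflammatory programmes of mouse cells. They were chosen by gene symbol, and all 41 were found among the 55901 genes of the expression table. They comprise 10 interferon-stimulated effector genes, 2 cytosolic RNA sensors, 5 interferon transcription factors, 6 MHC class I genes, 6 NF-kB genes, 5 chemokines, 5 cytokine genes and 2 complement genes. A mean of at least 0.5 FPKM (read pairs scaled to gene length and library size, so that levels of different genes can be set side by side) over the 12 libraries was needed for testing. This left 26 of the 41 genes in the tests, and the other 15 are described by their reads.

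Polyadenylated RNA was sequenced from cultured cortical neurons of newborn C57BL/6J mice, taken within 24 hours of birth, in 3 groups of 4 libraries. Control cultures were not injured, Trauma cultures were scratched mechanically, and Tra_TGF cultures were scratched and given transforming growth factor-β1 at 10 ng/ml for 24 hours. All groups share the strain, the neonatal cortex and a pulse of arabinosylcytosine, a DNA synthesis inhibitor given on day 1 to limit glia, so the cultures are enriched for neurons and not pure. The labels do not say whether the 4 libraries of a group came from separate animals or cultures, so p-values measure the spread between these libraries, which may be technical.

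Type I interferon binds a receptor that activates Stat2, which joins Irf9 and binds the interferon-stimulated response element in the promoters of antiviral genes. MHC class I molecules carry peptides to the cell surface, where B2m is their light chain and Tap1, Tap2 and Tapbp load them. NF-kB dimers, held back by Nfkbia, switch on chemokine and cytokine genes. In the brain, glial cells are the best known source of most of these products, and neurons express MHC class I at low levels.

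Promoters of 35 of the 41 genes were given by RefSeq (build GRCm38.p6, 43 windows, each running from 250 bases before the start to 50 after it). The core of the interferon-stimulated response element (GAAANNGAA, either strand) was found in 30.2% of these windows against 8.56% of all 32851 windows. It was in 7 of the 10 windows of the effector genes. The NF-kB motif (GGANTTTCC, either strand) was in 20.9% of the windows of the 41 genes and 1.25% of all. A match describes letters and does not show a bound site. The stretches below belong to effector genes whose levels stand out in 1 library, described further on, and to B2m and Cxcl1. Each is written 5′ to 3′ on the strand of its gene, and capitals mark the match nearest to the start, its position counted from the start.
Ifit1, response element core at -84 to -76, chr19:34640780-34640838, plus strand: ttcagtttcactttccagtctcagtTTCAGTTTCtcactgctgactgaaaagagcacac
Ifit3, response element core at -102 to -94, chr19:34583402-34583460, plus strand: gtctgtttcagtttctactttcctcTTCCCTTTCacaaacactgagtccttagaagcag
Isg15, response element core at -66 to -58, chr4:156200851-156200909, minus strand: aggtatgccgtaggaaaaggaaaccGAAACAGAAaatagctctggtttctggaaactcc
Bst2, response element core at -124 to -116, chr8:71537563-71537621, minus strand: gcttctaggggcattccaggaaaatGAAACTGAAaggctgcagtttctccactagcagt
Rsad2, response element core at -119 to -111, chr12:26456538-26456596, minus strand: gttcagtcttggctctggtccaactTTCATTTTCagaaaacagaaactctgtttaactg
B2m, response element core at -139 to -131, chr2:122147523-122147581, plus strand: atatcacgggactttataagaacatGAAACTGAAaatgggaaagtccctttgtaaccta
Cxcl1, NF-kB motif at -70 to -62, chr5:90891150-90891208, plus strand: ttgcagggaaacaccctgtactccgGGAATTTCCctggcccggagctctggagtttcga
Ifit1, Ifit3 and Isg15 each held 3 matches to the core and Bst2 held 2. In B2m the NF-kB motif followed the core after 4 bases, at -126 to -118. Oasl2 and Ifit2 held no match to the core in this window.

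The libraries held 15052486 to 17381671 reads on genes, as recovered from the FPKM values. Neuronal marker genes summed to 1445 to 1734 FPKM and endothelial markers to 0.282 to 0.580 FPKM in every library. In Trauma, astrocyte markers (270 to 332 against 213 to 241 FPKM in Control) and microglial markers (36.7 to 48.4 against 25.7 to 30.9 FPKM) summed higher, and in Tra_TGF they summed to 286 to 306 and 30.7 to 35.6 FPKM. In bulk RNA, a change in the number of cells of a type and a change in RNA per cell cannot be told apart. On the second principal component of the tested genes, the first Control library lay at 59 and the other 11 libraries between -21.9 and 8.70. On the first component it lay at -12.1, the other Control libraries at 25.3 to 30, Trauma at 1.88 to 11.3 and Tra_TGF at -31.8 to -16.9. This library enters every comparison with Control, and it bears on the interferon genes. Results that rest on it are given with and without it.

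Few of the 26 tested genes passed the test in any comparison. Between Trauma and Control none of them rose and 1 fell, Stat2, where 3.50% of all 15016 genes tested rose and 2.32% fell (limma on log2(FPKM + 0.1), adjusted p of at most 0.05 after Benjamini-Hochberg adjustment). At an unadjusted p of at most 0.05, 6 of the 26 were higher and 1 lower in Trauma. The share of all genes at that unadjusted threshold is not given here, so these counts cannot be read against a background. In this comparison voom on the recovered reads also called none higher. Between Tra_TGF and Trauma 1 gene rose, C4b, and 1 fell, H2-D1, against 4.64% and 7.63% of all genes. Between Tra_TGF and Control 3 rose, namely B2m, Il33 and C4b, and 1 fell, Stat2, against 6.85% and 9.46% of all genes. The shares of the 26, 3.85% for a single gene and 11.5% for 3 genes, lay near these backgrounds. The median log2 fold change of the 26 was 0.16 for Trauma against Control, where 21 had positive and 5 negative estimates, -0.10 for Tra_TGF against Trauma and 0.01 for Tra_TGF against Control. Over all tested genes these medians were -0.0025, 0.0052 and 0.0031. The first 2 comparisons share the Trauma libraries, so a value high in Trauma enters both with opposite signs.

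**Figure D1:**
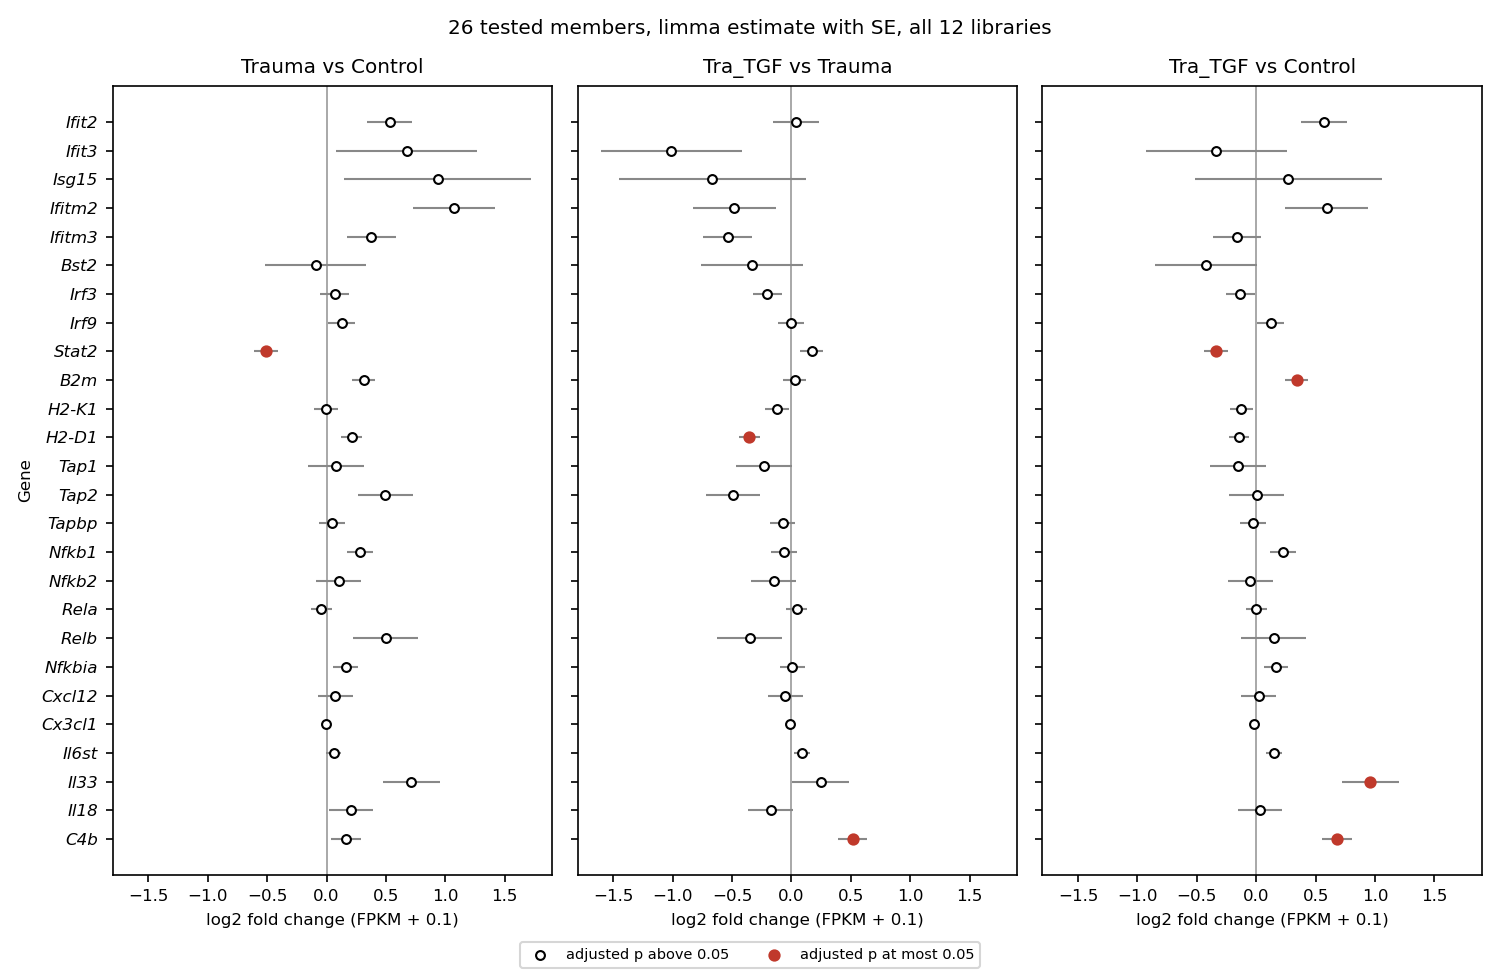
Log2 fold change of each of the 26 tested genes in the 3 comparisons, on the log2(FPKM + 0.1) scale; points are limma estimates from all 12 libraries, bars are SE, and filled points have an adjusted p of at most 0.05. Stat2, H2-D1, C4b, B2m and Il33 are the genes with filled points, and the widest bars belong to Isg15 and Ifit3.

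Apart from Ifitm3, at a mean of 7.75 FPKM, the interferon-stimulated effectors were low, at means of 2.36 FPKM (Bst2) or less. Summed over the 10 genes, the first Control library had more reads than any other library. The Ifit proteins bind foreign RNA, Isg15 is a ubiquitin-like modifier, Usp18 removes it and dampens the interferon receptor, Rsad2 (viperin) and Oasl2 act against viral replication, Bst2 (tetherin) holds virions at the membrane, and the Ifitm proteins block viral entry. The first Control library was the highest of all 12 for 6 of these 10 genes, against 11.8% of all genes with more than 3 reads in a library. Reads summed over the 10 genes were 649 in that library, 241, 186 and 199 in the other Control libraries, 331, 508, 306 and 422 in Trauma, and 288, 230, 265 and 310 in Tra_TGF.

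Ifit1 had 35 reads in the first Control library (95% exact Poisson interval 24.4 to 48.7, counting error only) and 2, 2 and 3 in the other Control libraries. It had 5, 5, 9 and 7 reads in Trauma and 2, 11, 2 and 7 in Tra_TGF. The first Control library thus lay above every other library, the other 3 Control libraries lay below all Trauma libraries, and Tra_TGF overlapped both. Oasl2 had 130 reads there (109 to 154) and 14, 13 and 7 in the other Control libraries. Its reads were 19, 44, 4 and 29 in Trauma and 6, 14, 3 and 15 in Tra_TGF. Usp18 was also highest in the first Control library, with 34 reads against 1, 1 and 4 in the other Control libraries. In Trauma it had 2, 12, 12 and 6 reads and in Tra_TGF 3, 0, 3 and 16. Rsad2 had 35 reads in the first Control library and 5, 3 and 17 in the others, so the last Control library was second highest. It had 2, 16, 4 and 7 reads in Trauma and 3, 3, 9 and 2 in Tra_TGF. These 4 genes were below the level tested.

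Isg15 (23 reads in the first Control library, then 1, 4 and 0) stood at 2.13, 0.0837, 0.362 and 0 FPKM in Control. It was at 0.432, 0.815, 0.322 and 1.12 FPKM in Trauma and at 0.187, 0.456, 0.439 and 0.355 in Tra_TGF. Of the 3 other Control libraries, 2 lay below every scratched library. The mean of Isg15, 0.558 FPKM over the 12 libraries, reached the level tested only through the first Control library. Bst2 was at 6.62, 1.50, 2.04 and 1.58 FPKM in Control, at 1.75, 2.79, 1.50 and 3.30 in Trauma and at 2.47, 1.14, 1.57 and 2.08 in Tra_TGF. Without the first Control library its ranges overlapped in all 3 groups. Ifit3 was at 1.68, 0.404, 0.401 and 0.260 FPKM in Control, at 0.801, 2.50, 0.421 and 0.741 in Trauma and at 0.677, 0.147, 0.354 and 0.609 in Tra_TGF. Here the second Trauma library, with 76 reads, was the highest, and the first Control library came next with 45. The neighbouring copy Ifit3b had 2 to 27 reads per library, and reads of the pair may be split uncertainly.

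**Figure D2:**
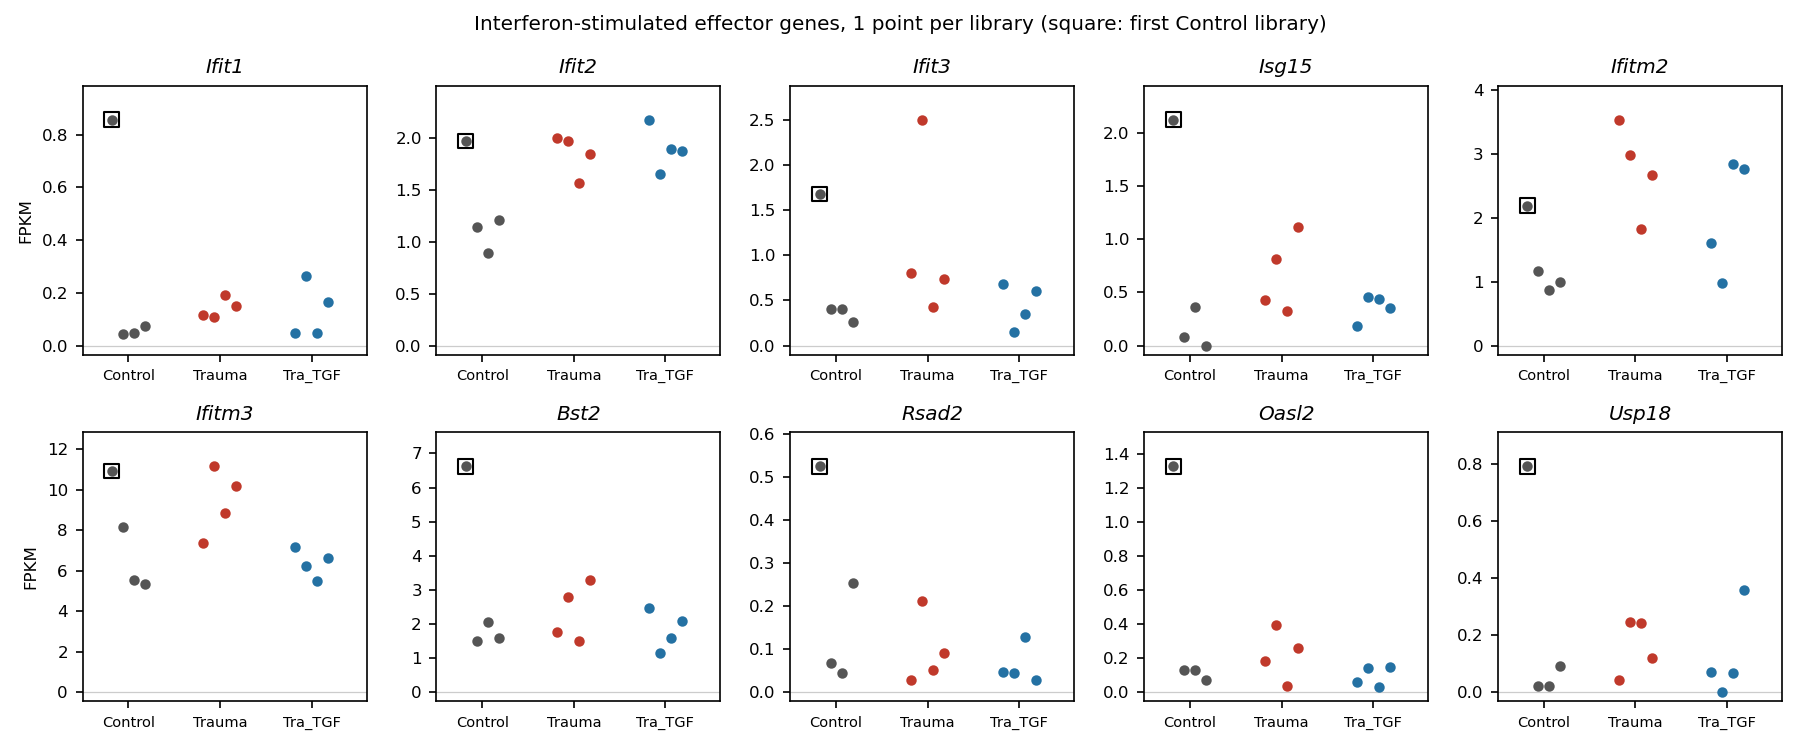
FPKM of the 10 interferon-stimulated effector genes, 1 point per library, by group; the square marks the first Control library. It is the highest point for Ifit1, Isg15, Bst2, Rsad2, Oasl2 and Usp18, and the second Trauma library is the highest for Ifit3 and Ifitm3.

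Ifit2 and the Ifitm genes were less uneven, and their comparisons turned on the same library. Ifit2 was at 1.97, 1.14, 0.891 and 1.21 FPKM in Control, at 2.00, 1.97, 1.57 and 1.85 in Trauma and at 2.17, 1.65, 1.89 and 1.88 in Tra_TGF. All scratched libraries lay above the last 3 Control libraries, and the first lay among them. The log2 fold change was 0.53 (SE 0.19, limma adjusted p = 0.141) in Trauma against Control and 0.74 (SE 0.14, adjusted p = 0.0117) without the first Control library. Against Control, Tra_TGF gave 0.57 (SE 0.19, adjusted p = 0.0623), and 0.78 (SE 0.14, adjusted p = 0.00282) without it. Ifitm2 was at 2.18, 1.17, 0.874 and 0.990 FPKM in Control, at 3.53, 2.98, 1.81 and 2.66 in Trauma and at 1.60, 0.978, 2.83 and 2.77 in Tra_TGF. Its log2 fold change in Trauma against Control was 1.07 (SE 0.35, limma adjusted p = 0.102), and 1.34 (SE 0.33, adjusted p = 0.0406) without the first Control library. Ifitm3 was at 10.9, 8.15, 5.53 and 5.36 FPKM in Control, at 7.35, 11.2, 8.84 and 10.2 in Trauma and at 7.17, 6.24, 5.47 and 6.63 in Tra_TGF. Every Tra_TGF library lay below every Trauma library, with a log2 fold change of -0.54 (SE 0.21, limma adjusted p = 0.105), and an adjusted p of 0.0363 without the first Control library. The adjusted p of this last comparison moved although it holds no Control library, since all groups share 1 estimate of the spread. Ifitm2 and Ifitm3 are related copies, and reads may be split uncertainly between them.

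Over the 26 tested genes, leaving out the first Control library raised the number that rose in Trauma against Control from 0 to 3. The 3 were B2m, Ifit2 and Ifitm2, against 3.28% of all genes, while 1 fell, against 2.29%. That library was noted in part for its high values in interferon genes. The calls without it therefore describe its weight and are not an independent test. For Tra_TGF against Control 5 rose (B2m, Il6st, C4b, Ifit2 and Il33), against 9.88% of all genes. No gene fell in that comparison, against 12.9%. At an unadjusted p of at most 0.05, 2 of the 26 were lower, again with no share of all genes to set beside them. For Tra_TGF against Trauma 1 rose, C4b, against 6.83%, and 2 fell, H2-D1 and Ifitm3, against 10.2%. The estimates for Ifit3 and Bst2 in Tra_TGF against Control turned from -0.34 and -0.42 to 0.16 and 0.054, and passed the test with neither set of libraries. Marker sums of the first Control library were the lowest of the 4 Control libraries for astrocytes (213 FPKM), microglia (25.7 FPKM) and oligodendrocytes (46.3 FPKM). They were the highest of the 4 for endothelial cells (0.548 FPKM) and for mural cells and fibroblasts (2.95 FPKM). For neurons the sum lay within the Control range (1700.2 FPKM). The part of any technical or biological difference of that library in these results was not tested.

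**Figure D3:**
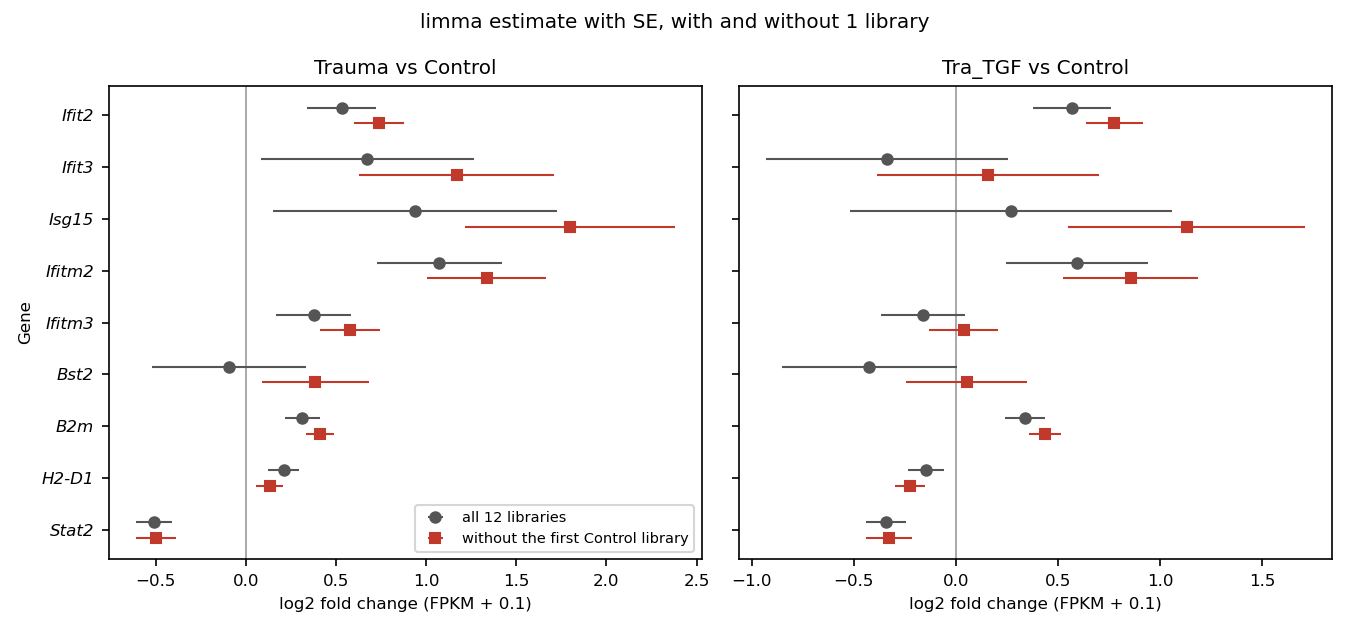
Log2 fold change with SE (limma) against Control for the 6 tested effector genes, B2m, H2-D1 and Stat2, from all 12 libraries (circles) and without the first Control library (squares). Every effector estimate shifts to the right when that library is left out, and Bst2 in Trauma moves from -0.09 to 0.39. This shift follows from the values, since that library was the highest of the Control libraries for each of the 6 effector genes.

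Of the other interferon-stimulated genes listed for comparison, 18 of 36 with more than 3 reads in a library were also highest in the first Control library. Of the interferon genes, Ifnb1 and Ifng alone were listed, and these were at the limit of detection. Ifnb1, the gene of interferon-β, had 0 reads in all 12 libraries, which allows up to 3 reads in each, and Ifng, interferon-γ, reached 0.145 FPKM at most.

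The sensors and transcription factors of the pathway showed 1 change, in Stat2. Ddx58 (RIG-I) and Ifih1 (MDA5), helicases that detect viral RNA in the cytosol, were below the level tested. Ddx58 had 69 reads in the first Control library, 26 to 45 in the others, 38 to 63 in Trauma and 31 to 55 in Tra_TGF. Ifih1 had 12 to 28, 21 to 41 and 20 to 27 reads in the 3 groups. For both sensors the 3 ranges overlapped.

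Stat2 (chromosome 10, 128270559 to 128292849, GRCm38), the transactivating subunit of the interferon-activated complex, was at 6.17, 5.17, 5.96 and 6.80 FPKM in Control. It was at 4.36, 4.00, 3.98 and 4.27 FPKM in Trauma and at 3.84, 4.75, 5.08 and 5.13 in Tra_TGF. All scratched libraries lay below all Control libraries, and Tra_TGF overlapped Trauma. Stat2 fell in Trauma, where its mean was 4.15 ± 0.190 against 6.02 ± 0.672 FPKM in Control (SD, n = 4), by -0.51 on the log2 scale (SE 0.10, limma adjusted p = 0.0116). It fell in Tra_TGF against Control as well, by 0.34 on the log2 scale (SE 0.10, limma adjusted p = 0.0374), a call that was lost without Control library 1, 3 or 4 or Tra_TGF library 1 or 2 (adjusted p 0.0567 to 0.0952) and with a correction for GC content (adjusted p = 0.0741). Tra_TGF against Trauma gave 0.17 (SE 0.10, limma adjusted p = 0.292). Stat2 was the only one of the 26 tested genes that fell in Trauma against Control. Neuronal markers also summed lower in Trauma, at 1480 to 1582 against 1680 to 1734 FPKM in Control. The single markers were not uniform. Of the 11 listed, 3 fell in Trauma against Control (Tubb3, Syt1 and Stmn2) and 2 rose (Nefl and Gad1). The part of the neuronal markers in the Stat2 values was not tested.

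The other interferon transcription factors gave no call. Irf9, the DNA-binding subunit, was at 2.05 to 2.70 FPKM in Control, 2.28 to 3.08 in Trauma and 2.34 to 2.70 in Tra_TGF. Irf3, which sensors activate, was at 4.52 to 6.25, 4.70 to 6.01 and 3.83 to 5.40 FPKM. Neither passed the test in any comparison. Irf1, which interferon-γ and NF-kB induce, had 19, 8, 15 and 10 reads in Control, 38, 29, 26 and 20 in Trauma and 21, 13, 19 and 27 in Tra_TGF. The levels overlapped, at 0.118 to 0.311 FPKM in Control and 0.283 to 0.581 in Trauma, and the gene was below the level tested. Irf7, the amplifier of type I interferon, had 21 reads in the first Control library, 6 to 10 in the others, 7 to 19 in Trauma and 4 to 15 in Tra_TGF. Irf7 overlaps Phrf1 (8.30 FPKM) on the opposite strand and Irf9 overlaps Rnf31 (4.77 FPKM), and whether the counting used strand is not given in the sources used here.

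Of the 6 MHC class I genes, B2m rose in Tra_TGF against Control, H2-D1 fell in Tra_TGF against Trauma, and the other 4 did not pass the test. B2m (chromosome 2, 122147686 to 122153083), the light chain shared by all class I molecules, was at 26.4, 19.3, 18.0 and 23.6 FPKM in Control. It was at 28.1, 27.1, 26.3 and 25.1 FPKM in Trauma and at 27.3, 27.5, 26.4 and 27.1 in Tra_TGF. The Tra_TGF libraries were tightly grouped, and Control spread widely with its first library near the scratched ones. B2m rose in Tra_TGF against Control, with a mean of 27.1 ± 0.464 against 21.8 ± 3.88 FPKM (SD, n = 4) and a difference of 0.34 on the log2 scale (SE 0.10, limma adjusted p = 0.0341). The Trauma difference from Control was 0.31 (SE 0.10, adjusted p = 0.0890), and 0.41 (SE 0.08, adjusted p = 0.0117) without the first Control library. The B2m call in Tra_TGF against Control was lost without Control library 2 or 3 (adjusted p = 0.0989 and 0.0848) and without any single Tra_TGF library (0.0538 to 0.0820). With a correction for GC content the difference was 0.22 (SE 0.07, limma adjusted p = 0.0780), while that of Trauma against Control then passed (0.34, adjusted p = 0.0162).

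H2-D1 (chromosome 17, 35262730 to 35267499), a class I heavy chain, was at 11.04, 14.7, 13.4 and 13.2 FPKM in Control, at 14.4, 16.4, 13.7 and 15.5 in Trauma and at 12.8, 11.9, 10.6 and 11.4 in Tra_TGF. All Tra_TGF libraries lay below all Trauma libraries, and Control overlapped both. H2-D1 fell in Tra_TGF against Trauma, with a mean of 11.7 ± 0.925 against 15.001 ± 1.19 FPKM and a log2 difference of -0.36 (SE 0.09, limma adjusted p = 0.0242). Leaving out Trauma library 2 or 4, or Tra_TGF library 2, 3 or 4, gave adjusted p values of 0.0512 to 0.0724. With no filter on level the limma adjusted p was 0.0513. H2-K1, the other classical heavy chain, was at 5.41 to 7.23 FPKM in Control, 5.65 to 6.83 in Trauma and 5.01 to 6.12 in Tra_TGF, and did not pass the test (log2 fold change -0.12, SE 0.10, limma adjusted p = 0.451 for Tra_TGF against Trauma). The heavy chains are near-identical copies, and reads may be split uncertainly between them.

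Among the peptide loading genes, Tap2, a subunit of the peptide transporter, was at 0.619, 0.607, 0.387 and 0.360 FPKM in Control, at 0.611, 0.743, 0.838 and 0.684 in Trauma and at 0.504, 0.492, 0.425 and 0.496 in Tra_TGF. Tra_TGF lay below Trauma without overlap, with a log2 fold change of -0.49 (SE 0.23, limma adjusted p = 0.176). Tap1, its partner, was at 0.557 to 0.795, 0.496 to 0.942 and 0.432 to 0.688 FPKM in Control, Trauma and Tra_TGF. Tapbp (tapasin), which bridges the transporter and the heavy chain, was at 3.11 to 3.99, 3.45 to 3.90 and 3.01 to 4.18 FPKM. Neither Tap1 nor Tapbp passed the test. Tapbp overlaps Zbtb22 (10.4 FPKM) on the same strand.

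**Figure D4:**
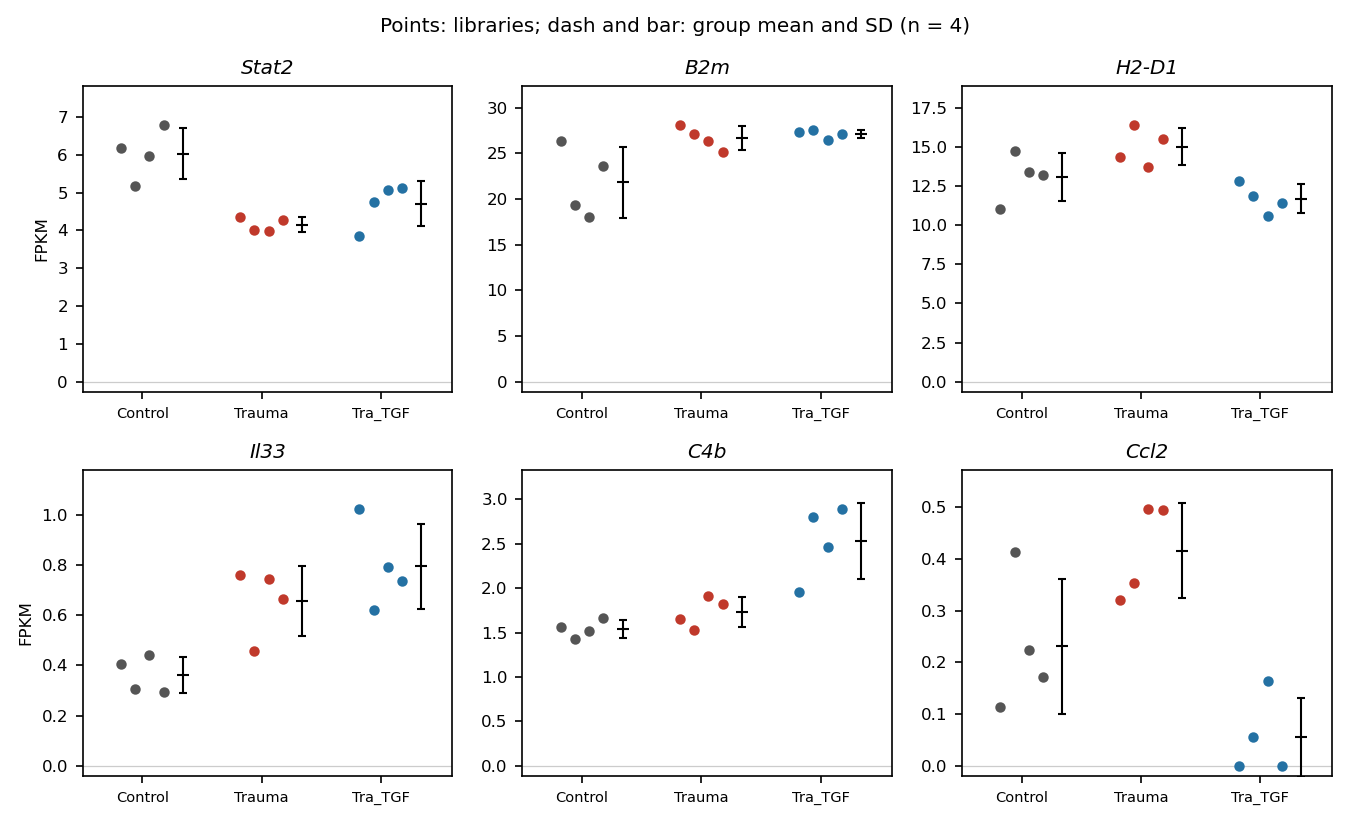
FPKM per library, with group mean and SD (n = 4), for the 5 genes that passed the test in a comparison and for Ccl2. Stat2 is lower in all scratched libraries than in Control, C4b is higher in Tra_TGF than in the other groups, and Ccl2 is at 0 in 2 of the 4 Tra_TGF libraries.

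None of the 5 tested NF-kB genes passed the test in any comparison. Nfkb1, the precursor of p50, came closest. It was at 0.921, 1.01, 0.997 and 1.08 FPKM in Control, at 1.3004, 1.202, 1.24 and 1.19 in Trauma and at 1.17, 1.26, 1.09 and 1.18 in Tra_TGF. Every scratched library lay above every Control library, with log2 fold changes of 0.28 (SE 0.11, limma adjusted p = 0.171) in Trauma and 0.22 (SE 0.11, adjusted p = 0.192) in Tra_TGF. Rela, the p65 subunit and the most abundant subunit here, was at 7.18 to 9.11 FPKM in Control, 7.74 to 8.58 in Trauma and 7.36 to 9.53 in Tra_TGF. Nfkbia, the inhibitor that NF-kB itself induces, was at 7.03 to 10.2, 8.15 to 9.70 and 8.22 to 9.35 FPKM. The subunits of the alternative pathway were lower, with Nfkb2 at 0.601 to 0.975 FPKM and Relb at 0.363 to 1.03 FPKM over all libraries. Relb gave 0.50 (SE 0.27, limma adjusted p = 0.356) in Trauma against Control. Tnfaip3 (A20), another inhibitor, was below the level tested, at 25 to 43 reads in Control, 37 to 53 in Trauma and 29 to 35 in Tra_TGF. Nfkb2 overlaps Psd, a gene at 72.1 FPKM on the opposite strand.

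Chemokines covered the whole range of levels. Cx3cl1 (fractalkine), which neurons make and microglia sense, was the highest of the 41 genes at 94.4 to 102 FPKM in Control, 94.5 to 98.3 in Trauma and 91.1 to 99.0 in Tra_TGF. The 3 ranges overlapped, and the SE of its log2 fold changes, 0.04, was the smallest among the 26 tested genes. Cxcl12, a guidance chemokine, was at 0.957 to 1.29, 1.14 to 1.24 and 0.894 to 1.43 FPKM in the 3 groups and did not pass the test.

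Ccl2 (MCP-1, chromosome 11, 82035571 to 82037453), which attracts monocytes, had few reads, and they separated Trauma from Tra_TGF. It had 2, 8, 4 and 3 reads in Control, 6, 7, 10 and 10 in Trauma and 0, 1, 3 and 0 in Tra_TGF. All Trauma libraries lay above all Tra_TGF libraries, and Control overlapped both. The summed reads were 33 in Trauma and 4 in Tra_TGF, a ratio of 0.133 per read sequenced (95% exact interval 0.0343 to 0.375, counting error only). Ccl2 was below the level tested, and with no filter on level limma gave an adjusted p of 0.0303 for this comparison. Trauma against Control gave a ratio of 1.78, with an interval (0.962 to 3.40) that includes 1. Microglial markers also summed lower in Tra_TGF than in Trauma, without overlap (30.7 to 35.6 against 36.7 to 48.4 FPKM). The single markers were not uniform. Of the 11 listed, 5 were tested, and 1 passed the test in this comparison, C1qc, which was lower (limma adjusted p = 0.0499). Tmem119, below the level tested, was higher in every Tra_TGF library than in Trauma (limma with no filter, adjusted p = 0.0433). The part of microglia in the Ccl2 reads was not tested. Cxcl1, which attracts neutrophils, had 0 to 6 reads, and Cxcl10, an interferon-induced T-cell chemokine, had 11 reads in the first Control library, 3 to 4 in the others, 4 to 7 in Trauma and 3 to 13 in Tra_TGF. Differences in Cxcl1 were not detectable at this depth.

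Among the cytokine genes Il33 rose in Tra_TGF against Control. Il33 (chromosome 19, 29925114 to 29960718) encodes a nuclear alarmin released on cell damage. It was at 0.405, 0.306, 0.441 and 0.292 FPKM in Control, at 0.758, 0.457, 0.745 and 0.662 in Trauma and at 1.02, 0.622, 0.792 and 0.736 in Tra_TGF. These are 13 to 20 reads in Control, 23 to 38 in Trauma and 28 to 45 in Tra_TGF, and every scratched library lay above every Control library. Il33 rose in Tra_TGF against Control, its mean being 0.793 ± 0.169 against 0.361 ± 0.0733 FPKM, and the log2 difference was 0.96 (SE 0.24, limma adjusted p = 0.0193). In Trauma against Control it gave 0.71 (SE 0.24, adjusted p = 0.115), and in Tra_TGF against Trauma 0.25 (SE 0.24, adjusted p = 0.546). Leaving out the second Control library or the first Tra_TGF library gave adjusted p values of 0.0506 and 0.0545. Astrocyte and oligodendrocyte markers also summed higher in Tra_TGF than in Control (286 to 306 against 213 to 241 FPKM, and 56.9 to 63.4 against 46.3 to 49.1 FPKM), and their part in the Il33 values was not tested.

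The remaining cytokine genes did not pass the test. Il6st (gp130), the signalling receptor shared by the Il6 family, was at 6.26 to 7.58 FPKM in Control, 6.62 to 7.50 in Trauma and 7.21 to 7.62 in Tra_TGF. Its log2 fold change in Tra_TGF against Control was 0.15 (SE 0.06, limma adjusted p = 0.141), and 0.21 (SE 0.05, adjusted p = 0.0184) without the first Control library. Il18, an inflammasome substrate, was at 2.64 to 4.41, 2.78 to 4.94 and 3.12 to 4.23 FPKM. Of the ligands, Lif had 3 to 26 reads in Control, 12 to 22 in Trauma and 13 to 26 in Tra_TGF, and Il6 had 0 to 4 reads in any library, with 0 reads in 8 of the 12. No difference in Il6 was detectable at this depth.

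C4b rose with transforming growth factor-β1. C4b (chromosome 17, 34728380 to 34743882), the complement protein that tags surfaces after C1 is activated, was at 1.56, 1.42, 1.52 and 1.66 FPKM in Control. It was at 1.65, 1.53, 1.92 and 1.83 FPKM in Trauma and at 1.96, 2.80, 2.46 and 2.90 in Tra_TGF. Each Tra_TGF library lay above each library of the other groups, its first library by the least, and Trauma overlapped Control. Its mean of 2.53 ± 0.423 FPKM in Tra_TGF exceeded that of Trauma, 1.73 ± 0.173, by a log2 difference of 0.51 (SE 0.13, limma adjusted p = 0.0237). Against Control the log2 fold change was 0.68 (SE 0.13, limma adjusted p = 0.00469), and this call held without any single library. The call against Trauma was lost without Trauma library 1 or 2 or Tra_TGF library 2 or 4 (adjusted p 0.0572 to 0.0739). Astrocyte markers summed higher in Tra_TGF than in Control (286 to 306 against 213 to 241 FPKM) and overlapped Trauma (270 to 332 FPKM). Of the 9 astrocyte markers, 1 rose in Tra_TGF against Trauma, Aqp4 (limma adjusted p = 0.0178). In the same comparison 3 fell, namely Aldh1l1, Aldoc and Gja1 (limma adjusted p = 0.0043, 0.0164 and 0.0219). The part of astrocytes in the C4b values was not tested. The near-identical C4a had 37 to 64 reads per library, and reads of the pair may be split uncertainly. C3, the central complement protein, was below the level tested, with 16 to 31 reads in Control, 20 to 57 in Trauma and 26 to 40 in Tra_TGF.

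Of 156 other genes of the same pathways found in the table, 81 were tested. Between Trauma and Control 7 rose and 2 fell, against 3.50% and 2.32% of all genes tested. Between Tra_TGF and Trauma 3 rose and 4 fell, against 4.64% and 7.63%. Between Tra_TGF and Control 13 rose and 4 fell, against 6.85% and 9.46%. The lists were chosen with earlier results of these data known, so these counts cannot be read as an excess or a lack. Those that rose included a receptor and a transcription factor of the Il6st signalling branch. Osmr, the oncostatin M receptor that pairs with Il6st, was at 0.305 to 0.408 FPKM in Control, 0.781 to 0.928 in Trauma and 1.12 to 1.57 in Tra_TGF, in 3 ranges that did not overlap. Its log2 fold changes were 1.09 (SE 0.17, limma adjusted p = 0.00266) for Trauma against Control and 0.60 (SE 0.17, adjusted p = 0.0377) for Tra_TGF against Trauma. The second of these calls was lost with a correction for gene length (adjusted p = 0.0845) or GC content (0.0873) and held in 5 of 12 fits with 1 library left out. Stat3, which Il6st activates, was at 6.06 to 6.86, 7.08 to 8.22 and 8.22 to 9.03 FPKM and rose in Trauma by 0.30 (SE 0.06, limma adjusted p = 0.0110).

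Other inflammatory genes also separated the groups. Vcam1, an adhesion molecule and NF-kB target, was at 1.23 to 1.58 FPKM in Control, 1.82 to 2.28 in Trauma and 3.23 to 3.56 in Tra_TGF, and rose in each step (log2 fold change 0.61 and 0.71, SE 0.10, limma adjusted p = 0.00447 and 0.00391). Ccl3, a chemokine of myeloid cells, was at 0.678 to 1.23 FPKM in Control, 1.67 to 2.24 in Trauma and 0.807 to 1.14 in Tra_TGF. It rose by 1.11 (SE 0.18, limma adjusted p = 0.00409) in Trauma and fell by 0.98 on the log2 scale (SE 0.18, adjusted p = 0.00989) in Tra_TGF against Trauma. C5ar1, the receptor of the complement fragment C5a, was at 0.962 to 1.25 FPKM in Trauma and 0.243 to 0.723 in Tra_TGF and fell by 0.99 on the log2 scale (SE 0.27, limma adjusted p = 0.0352). The C5ar1 call was lost with a correction for gene length (adjusted p = 0.0601) or GC content (0.0514) and held in 6 of 12 fits with 1 library left out. Ccl3, C5ar1, Ccl2 and the sum of microglial markers all had their highest mean in Trauma. The single microglial markers were not uniform. With no filter on level, Tmem119, Trem2, Itgam and Ptprc had positive estimates in Tra_TGF against Trauma, and the other listed markers negative ones. The part of microglia was not tested.

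Receptors and loading factors gave smaller shifts. Tnfrsf1a, the main receptor of tumour necrosis factor, rose from 5.24 ± 0.574 FPKM in Control to 7.25 ± 0.549 in Trauma, and Csf1, the growth factor of microglia, from 1.78 ± 0.250 to 2.46 ± 0.220 FPKM. Clu (clusterin), a complement inhibitor, rose in Trauma from 39.9 ± 1.66 to 51.6 ± 3.29 FPKM. Ifngr2, a subunit of the interferon-γ receptor, averaged 28.2 FPKM in Tra_TGF and 33.0 in Control and fell, its log2 difference being -0.21 (SE 0.05, limma adjusted p = 0.00940). Psmb10, an immunoproteasome subunit that cuts peptides for class I molecules, fell in Tra_TGF against Trauma from 12.8 ± 1.11 to 9.33 ± 0.913 FPKM. Of the 8 tested genes listed with it for class I loading, Psmb10 included, it alone passed the test in this comparison. Of these 8, 3 had positive and 5 negative estimates. Adam17, the protease that sheds fractalkine and tumour necrosis factor, rose in Tra_TGF against Trauma by 0.47 (SE 0.11, limma adjusted p = 0.0199), while Cxcl14, a homeostatic chemokine, fell by 0.24 on the log2 scale (SE 0.06, adjusted p = 0.0298). Cxcl14 gave -0.14 with a correction for gene length and -0.17 with one for GC content (adjusted p = 0.156 and 0.113), and Psmb10 was also lost with the latter (adjusted p = 0.0614). With 1 library left out, the calls of Csf1 and Cxcl14 each held in 7 of 12 fits, that of Adam17 in 8 and that of Psmb10 in 9. In Tra_TGF against Control other genes named by the rule included Irf2, Traf6, Traf3, Pdia3 and C3ar1, which rose by 0.17 to 0.47, and Tradd, which fell. The calls of Irf2 and Tradd were lost with either correction and held in 5 of 12 fits with 1 library left out, and that of C3ar1 was lost with the GC correction (adjusted p = 0.0653) and held in 6.

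**Figure D5:**
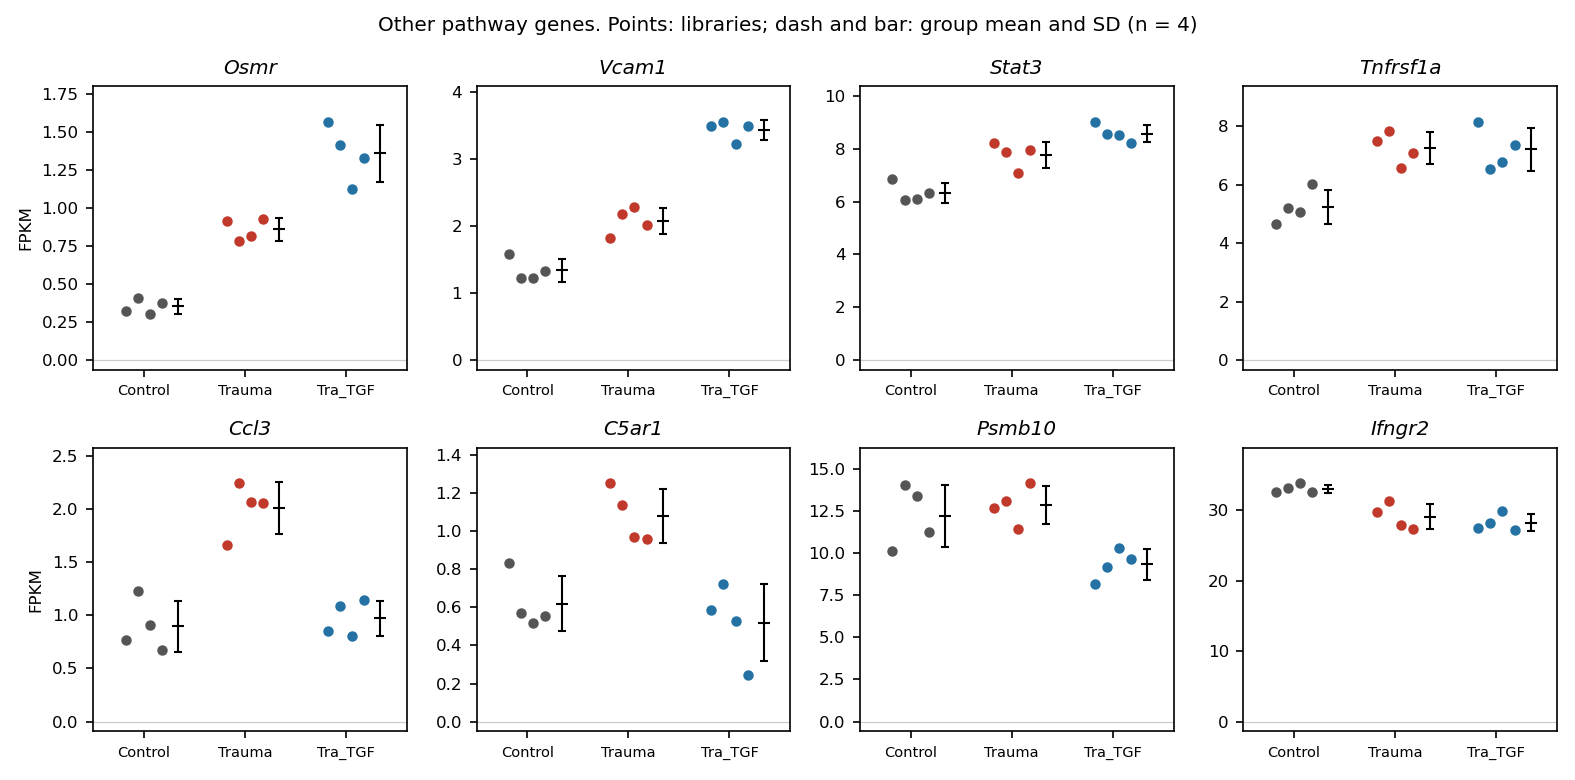
FPKM per library, with group mean and SD (n = 4), for 8 other genes of the pathways. Osmr and Vcam1 step up from Control to Trauma to Tra_TGF, Ccl3 and C5ar1 are highest in Trauma, and Psmb10 is lowest in Tra_TGF.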

How the data were processed

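RNA from 12 libraries (4 each of Control, Trauma and Tra_TGF) was sequenced by the authors as paired-end reads of 150 bases. Per the labels, reads were aligned to mm10 with HISAT2 2.0.5. Per the methods, genes were counted with featureCounts. The authors deposited 1 table of FPKM values, whose methods describe 6 samples while the table holds 12. The median-of-ratios factor over the 17640 genes above 0 in every library was 1.01 in all 12, so the deposited FPKM had already been scaled between libraries. Reads were recovered as FPKM times gene length over each library's step, and 100% of the genes above 0 in each library came out whole (within 0.1), with 15052486 to 17381671 reads on genes per library.

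limma 3.58.1 (R 4.3.3) was fitted to log2(FPKM / factor + 0.1), with factors over well-measured genes, for the 15016 genes that averaged 0.5 FPKM or more, in 1 fit of all libraries with a mean-variance trend. p-values were adjusted over all tested genes within each comparison. Fold changes of low genes are understated by the added 0.1. Genes below the level tested are given as reads, and intervals cover counting error only. Alternatives were other pseudocounts, filters, scalings, corrections for gene length and GC content, voom on recovered reads and each library left out. The code was tested on simulated data. The named genes were all 41, and in each pathway list and comparison up to 3 genes past the threshold with the largest change and at least 1 FPKM in the higher group, of which 1 is not reported here. The genes and lists were chosen with earlier results of these data known. Promoter sequences are from RefSeq (GRCm38.p6). Of 160 pathway symbols listed, 156 matched 1 gene each.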

Additional observations from a re-analysis of the deposited data

Results flagged for a closer look

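In 4 libraries of a group, the value farthest from the rest was set against Dixon's 95% limit, which chance exceeds in about 1 in 20 groups. Among groups with more than 3 reads in a library, 7 of 39 gene values exceeded it in Control, 1 of 41 in Trauma and 3 of 38 in Tra_TGF, while over all tested genes the shares were 5.67%, 5.39% and 5.11%. The first counts include genes below the level tested and these shares do not, so the sets are unlike. All 7 in Control were high values of the first Control library: Ifit1 at 0.856 FPKM (others up to 0.0733), Ifit3 at 1.68 (up to 0.404), Isg15 at 2.13 (up to 0.362), Bst2 at 6.62 (up to 2.04), Oasl2 at 1.33 (up to 0.130), Usp18 at 0.792 (up to 0.0930) and Cxcl10 at 0.317 (up to 0.115). A high value of the first library exceeded the limit in 1.62% of all tested genes in Control. These genes share the interferon response, and their agreement within 1 library is not independent evidence. What sets this library apart was not tested.

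In Trauma, Il6 stood at 0.0926 FPKM (4 reads) in the last library, with 0 in the others, where any value above 0 exceeds the limit. In Tra_TGF, Rsad2 stood high at 0.128 FPKM (9 reads) in the third library, Tap2 low at 0.425 FPKM in the third library against 0.492 to 0.504, and Nfkbia low at 8.22 FPKM in the last library against 9.25 to 9.35.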

How the results depend on the processing

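Every fold change printed kept its sign under each of the 15 alternatives that could be made for it, and in the 12 fits with 1 library left out, except those of Ifit3 and Bst2, which passed the test in none. With 1 library left out, Ifit3 in Tra_TGF against Control ran from -0.61 to 0.16, and Bst2 from -0.31 to 0.39 in Trauma and from -0.64 to 0.054 in Tra_TGF against Control, the highest value each time without the first Control library. The 26 tested genes gave 0 that rose in Trauma against Control, and 2 without the mean-variance trend, 1 with the GC correction, 1 with it and the replicate block, and 2 among protein-coding genes alone. For Tra_TGF against Trauma the rise of 1 became 0 with no filter, and the fall of 1 became 0 with the replicate block and either the length or the GC correction, and 2 with the 2 groups alone. With no filter, which tests all 41 genes, the 1 that fell was Ccl2 (limma adjusted p = 0.0303), and the call of H2-D1 was lost (0.0513). For Tra_TGF against Control the 3 that rose became 1 with the 2 groups alone, 2 with no filter, a filter at 1 FPKM or the GC correction with or without the block, and 4 with voom, with the length correction and block or among protein-coding genes, and the 1 that fell became 0 with no filter, with the GC correction, with it and the block, and with the 2 groups alone. Leaving out each library in turn gave 0 to 3 rises in Trauma against Control and always 1 fall, 0 to 1 rises and 0 to 2 falls in Tra_TGF against Trauma, and 1 to 5 rises and 0 to 1 falls in Tra_TGF against Control. The causes were not tested. Same-numbered libraries deviated together with correlations of -0.009 to 0.076, and different-numbered libraries with -0.091 to 0.073. Correlations this weak do not settle whether the numbers pair the libraries. The replicate block alone left all counts as they were, except 4 rises in place of 3 for Tra_TGF against Control. Stat2 in Trauma and C4b in Tra_TGF against Control passed the test in every fit run. Depth limits the 15 genes below the level tested, of which Il6 and Cxcl1 had at most 6 reads in a library.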
